A study of Mus musculus with 44 samples.

Results

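Trbj2-1 and Trbj2-5 are 2 of the joining (J) gene segments of the mouse T cell receptor β (TRB) locus, followed here through 44 B16 melanoma tumours. A CDR3, the receptor loop that contacts peptide, was counted for Trbj2-1 when its amino acid sequence ended in AEQFF and for Trbj2-5 when it ended in DTQYF. All TRB CDR3s were those with the ending of 1 of 12 TRBJ genes, and an entry was 1 CDR3 in 1 tumour. By this rule Trbj2-1 had 13980 entries and Trbj2-5 had 11750 of 95913 TRB entries, which is 14.6% and 12.3%, out of 170818 entries in a table that holds both receptor chains without a chain label. The entries were 10931 and 8895 different sequences, and they took 802701 and 577523 of 6301600 TRB reads. Both genes were chosen because their shares moved in opposite directions between treatments in these same tumours. The treatment differences in their shares are therefore given as a description, without a test.

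B16F10 melanoma cells were implanted under the skin of the back of wild-type C57BL/6 mice (C57BL/6J in the study's methods), and 100 μg of tissue was taken from each tumour on day 12. The groups were Vehicle (n = 14 tumours, given as no treatment in the deposited table), aPD-1 (n = 15), an antibody that blocks the inhibitory receptor PD-1, and AC484 (n = 15), a small-molecule inhibitor of the phosphatases PTPN2 and PTPN1. Each tumour gave 1 library of TCRα and TCRβ transcripts. The samples were whole tumours, so T cell subsets were mixed, and the table lists no other transcript against which the labelled tissue could be checked. Distinct TRB CDR3s per tumour ranged from 108 to 1383 in Vehicle, from 698 to 3499 in aPD-1 and from 1971 to 8300 in AC484, and TRB reads from 5060 to 407156 over all tumours. The libraries carried 4 index primer sets: set 1 held Vehicle tumours only, set 4 AC484 tumours only, set 2 held 2 Vehicle and 10 aPD-1 tumours and set 3 held 5 aPD-1 and 7 AC484 tumours. No set held both Vehicle and AC484 tumours, so for these groups treatment and index set cannot be told apart.

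A TCRβ chain is assembled in the thymus, where the RAG recombinase joins a Trbd to a Trbj segment and then a Trbv segment to both. Bases are trimmed and added at each joint, so a CDR3 starts with Trbv residues, carries a variable middle and ends with Trbj residues. Trbj2-1 and Trbj2-5 lie in the second cluster, downstream of Trbd2. Trbd1 can join to either cluster, whereas Trbd2 normally joins only to the Trbj2 genes that follow it. A J segment ends the loop and adds the framework strand behind it, so its use records a step in how a receptor was built.

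The germline segments are shown because their ends define both genes here and set what a CDR3 can inherit from them. They were read on the plus strand of chromosome 6 of GRCm38.p6 with the RefSeq annotation, in which Trbj2-1 and Trbj2-5 are J and Trbd2 is a D gene segment of the TRB locus. Capitals mark the bases that encode the end of the CDR3.

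Trbj2-1, chr6:41542754-41542803: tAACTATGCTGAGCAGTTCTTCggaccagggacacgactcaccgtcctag

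Trbj2-5, chr6:41543453-41543501: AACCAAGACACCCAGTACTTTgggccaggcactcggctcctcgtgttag

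Trbd2, chr6:41542163-41542176: gggactgggggggc

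The capitals of Trbj2-1 encode NYAEQFF and those of Trbj2-5 encode NQDTQYF, so each can give up to 7 residues to a CDR3. Trbj2-1 starts 577 bases after Trbd2 and is the first J gene of its cluster. Trbj2-5 starts 1276 bases after Trbd2, with 649 bases between both J segments. RAG binds a recombination signal of a nonamer, a spacer of 12 bases and a heptamer directly before each J segment, shown next because it is the part of either gene that recombination reads (capitals mark the nonamer and the heptamer).

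Signal of Trbj2-1, chr6:41542726-41542753: GAATTCTTGgtagcccttttcTGCTGTG

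Signal of Trbj2-5, chr6:41543425-41543452: AGTTTTTGTgttgggttctggGGCTGTG

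Set against the consensus heptamer CACTGTG and nonamer GGTTTTTGT at these fixed positions on the plus strand, both genes matched 5 of 7 heptamer bases. The nonamer of Trbj2-1 matched 4 of 9 bases and that of Trbj2-5 matched 8 of 9. Over the 12 TRBJ genes the nonamer match ranged from 4 to 8 bases and the heptamer match from 4 to 7. These are counts of matching letters and not measured strengths of a signal.

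Among distinct TRB CDR3s the most used gene was Trbj2-7 (15.2% ± 1.43, SD, n = 44 tumours), followed by Trbj2-1 (14.0% ± 1.62) and Trbj2-5 (12.5% ± 1.26). The differences between neighbours within this group of 3 were smaller than their spread over tumours: Trbj2-1 exceeded Trbj2-5 by 1.47 ± 2.37 percentage points and was the higher of both in 40 of 44 tumours. Trbj2-5 stood apart from the gene after it, Trbj2-3 (9.66% ± 1.00), by 2.82 ± 1.64 points and was higher in 43 of 44 tumours. Then came Trbj1-1 (9.57%), Trbj2-4 (7.86%), Trbj1-4 (7.06%), Trbj2-2 (6.15%), Trbj1-2 (6.07%), Trbj1-3 (6.03%), Trbj1-6 (3.36%) and Trbj1-5 (2.62%). Of the neighbours in this tail only Trbj1-3 and Trbj1-6 differed by more than their spread. The place of Trbj2-5 was alike in each treatment, whereas its distance from Trbj2-1 was 0.44 ± 3.55 points in Vehicle, 0.98 ± 1.098 in aPD-1 and 2.92 ± 0.86 in AC484.

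**Figure D1:**
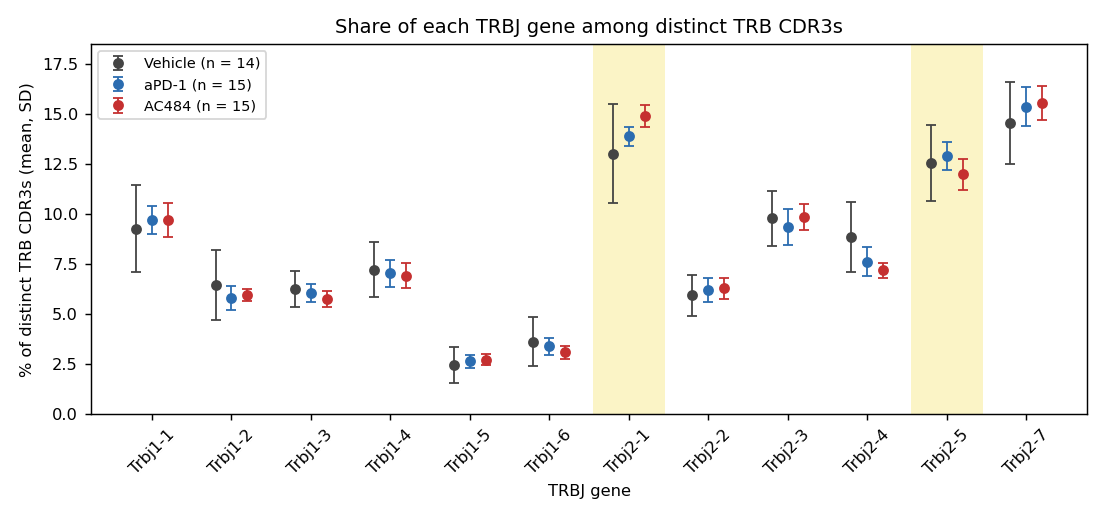
Share of each of the 12 TRBJ genes among the distinct TRB CDR3s of a tumour (y axis, %), as the mean over tumours with SD bars for Vehicle (grey, n = 14), aPD-1 (blue, n = 15) and AC484 (red, n = 15). Yellow bands mark Trbj2-1 and Trbj2-5, whose means lie next to each other in Vehicle (13.0% and 12.6%) and 2.92 points apart in AC484.

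The share of Trbj2-1 was highest in AC484 tumours. In Vehicle tumours it was lowest at 6.48%, with a median of 13.5% and a highest value of 16.2%. In aPD-1 tumours the lowest, median and highest values were 12.8%, 13.9% and 14.6%, and in AC484 tumours they were 13.9%, 14.8% and 15.7%. Of 15 AC484 tumours 11 lay above every aPD-1 tumour, and 6 of 15 aPD-1 tumours lay below every AC484 tumour, so the groups overlapped in a narrow band. All 15 AC484 tumours lay above the Vehicle median, but 1 Vehicle tumour was above all of them.

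The share of Trbj2-5 was lowest in AC484 tumours. Its lowest, median and highest values were 8.70%, 12.7% and 17.4% in Vehicle, 11.9%, 12.9% and 14.9% in aPD-1 and 11.1%, 11.9% and 14.1% in AC484. Of 15 AC484 tumours 8 lay below every aPD-1 tumour and 2 lay above the aPD-1 median. The Vehicle tumours spanned the whole range of both other groups.

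The mean share of Trbj2-1 was 13.0% ± 2.47 (SD, n = 14) in Vehicle, 13.9% ± 0.47 (n = 15) in aPD-1 and 14.9% ± 0.54 (n = 15) in AC484. That of Trbj2-5 was 12.6% ± 1.89, 12.9% ± 0.71 and 12.0% ± 0.78. AC484 tumours thus differed from aPD-1 tumours by 1.03 ± 0.18 percentage points (standard error) in Trbj2-1 and by -0.91 ± 0.27 points in Trbj2-5, and from Vehicle tumours by 1.91 ± 0.68 and -0.57 ± 0.54 points. aPD-1 tumours differed from Vehicle tumours by 0.88 ± 0.67 and 0.34 ± 0.54 points, a comparison that shares its aPD-1 tumours with the first. Dividing the genes within each tumour gave 1.06 ± 0.27 distinct Trbj2-1 CDR3s per Trbj2-5 CDR3 in Vehicle, 1.08 ± 0.08 in aPD-1 and 1.25 ± 0.08 in AC484.

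**Figure D2:**
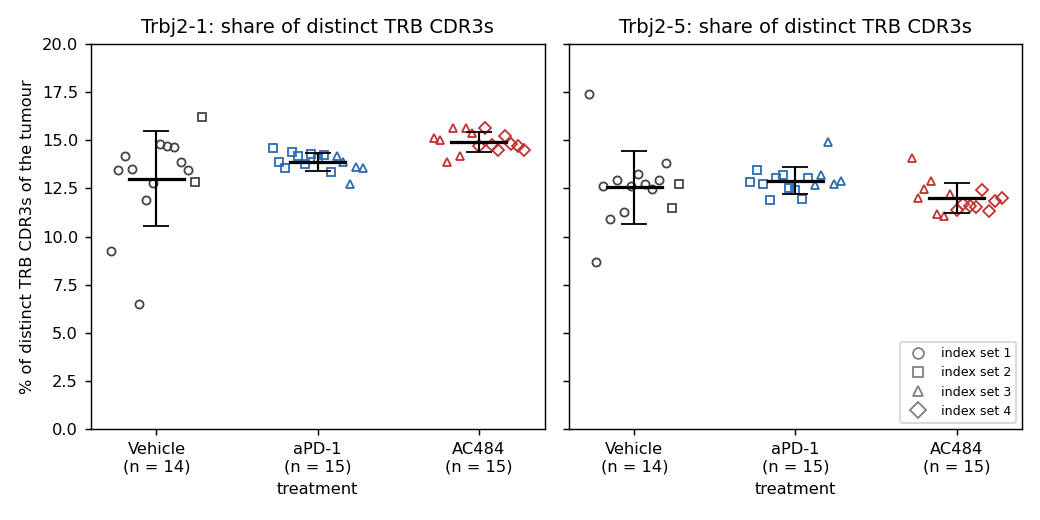
Share of distinct TRB CDR3s (y axis, % of the tumour's distinct TRB CDR3s) that belonged to Trbj2-1 (left) and Trbj2-5 (right), 1 symbol per tumour, by treatment (x axis), with the mean (bar) and SD. Symbol shapes give the index primer set. AC484 tumours sit between 13.9% and 15.7% for Trbj2-1 and between 11.1% and 14.1% for Trbj2-5.

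The Vehicle group, which had the widest range, also had the smallest repertoires. The lowest Trbj2-1 share, 6.48%, was 7 of 108 distinct CDR3s (95% Wilson interval 3.18 to 12.8%), whereas the highest, 16.2%, came from a larger Vehicle repertoire, 192 of 1186 (14.2 to 18.4%). The highest Trbj2-5 share, 17.4%, was 47 of 270 (13.4 to 22.4%), and the lowest, 8.70%, was 20 of 230 (5.70 to 13.0%). In AC484 the highest Trbj2-1 share was 322 of 2057 CDR3s (14.1 to 17.3%), and the highest Trbj2-5 share, 311 of 2207, had an interval of 12.7 to 15.6%. These intervals cover counting error only. Leaving out the tumour with the fewest CDR3s (Vehicle 5) lowered the Trbj2-1 difference between aPD-1 and Vehicle from 0.88 to 0.38 points, and leaving out Vehicle 1 changed the Trbj2-5 difference between AC484 and Vehicle from -0.57 to -0.20 points and that between aPD-1 and Vehicle from 0.34 to 0.71 points. Without Vehicle 2 these were -0.87 and 0.04 points, and the second was 0.21 points without Vehicle 4 and 0.20 points without aPD-1 13.

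The number of distinct CDR3s rises with sequencing depth, which differed between groups. When every tumour was drawn to the smallest TRB total, 5060 reads (mean of 20 draws), the share of Trbj2-1 was 12.8% ± 2.67 in Vehicle, 13.6% ± 0.50 in aPD-1 and 14.5% ± 0.77 in AC484. For Trbj2-5 the drawn shares were 12.8% ± 2.14, 13.1% ± 1.14 and 11.8% ± 0.71. AC484 tumours and aPD-1 tumours then differed by 0.87 points in Trbj2-1 and by -1.25 points in Trbj2-5.

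Within index set 3, the set that held both treatments, the 7 AC484 tumours had a mean Trbj2-1 share of 15.0% ± 0.69 and the 5 aPD-1 tumours 13.6% ± 0.53, a difference of 1.39 points. Their Trbj2-5 shares were 12.3% ± 1.03 and 13.3% ± 0.93, a difference of -1.003 points. AC484 tumours of set 4 had 14.9% ± 0.40 and 11.7% ± 0.37. Within index set 2 the 10 aPD-1 tumours had a Trbj2-1 share 0.48 points below that of the 2 Vehicle tumours (14.0% ± 0.38 against 14.5% ± 2.37), the opposite direction to the difference over all tumours, and a Trbj2-5 share 0.60 points above it. That comparison rests on 2 Vehicle tumours.

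As background for these values, a quasi-likelihood model of distinct CDR3s per gene (edgeR, fitted over the 12 TRBJ genes and all 3 groups) called 2 of 12 genes, 16.7%, between AC484 and aPD-1 at an adjusted p under 0.05, 1 in each direction. These were the genes under study, which were chosen by this contrast, so nothing is read from the calls. At an unadjusted p under 0.05 there were 5 of 12 genes, the others being Trbj1-6 (log2 difference -0.14), Trbj2-4 (-0.09) and Trbj2-3 (0.07). In that fit Trbj2-1 differed by 0.10 ± 0.03 on the log2 scale (SE), a 1.07-fold level, and Trbj2-5 by -0.10 ± 0.03, a 0.934-fold level. Between AC484 and Vehicle 0 of 12 genes (0%) were called, with 2 at an unadjusted p under 0.05, Trbj2-1 and Trbj2-4 (log2 difference -0.18). The fitted log2 differences of Trbj2-1 and Trbj2-5 were 0.11 ± 0.04 and -0.08 ± 0.05. Between aPD-1 and Vehicle 0 of 12 (0%) were called, with 0 at an unadjusted p under 0.05, and the differences were 0.02 ± 0.05 and 0.01 ± 0.05. DESeq2 called 0 of 12 genes in both of these comparisons.

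Splitting the CDR3s by their reads in the tumour gave the shares at each level of abundance. Among CDR3s of 10 to 99 reads, Trbj2-1 took 14.2% ± 0.94 in aPD-1 and 15.1% ± 1.36 in AC484, and Trbj2-5 took 13.5% ± 1.31 and 11.6% ± 1.17. Among CDR3s of 2 to 9 reads the values were 13.9% ± 1.68 and 14.9% ± 1.12 for Trbj2-1 and 12.6% ± 1.01 and 12.1% ± 0.88 for Trbj2-5. Among CDR3s of a single read Trbj2-1 had 13.8% ± 2.48 and 15.0% ± 1.87, while Trbj2-5 had 11.9% ± 1.65 and 12.4% ± 1.19. The order of the groups was thus reversed for Trbj2-5 at 1 read, and for Trbj2-1 at 100 or more reads, where aPD-1 had 12.2% ± 3.16 and AC484 10.5% ± 3.51. Each of these differences except that of Trbj2-5 at 10 to 99 reads was smaller than the SD of at least 1 of its groups, and the classes of 1 read held 4044 TRB entries in aPD-1 and 16639 in AC484.

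**Figure D3:**
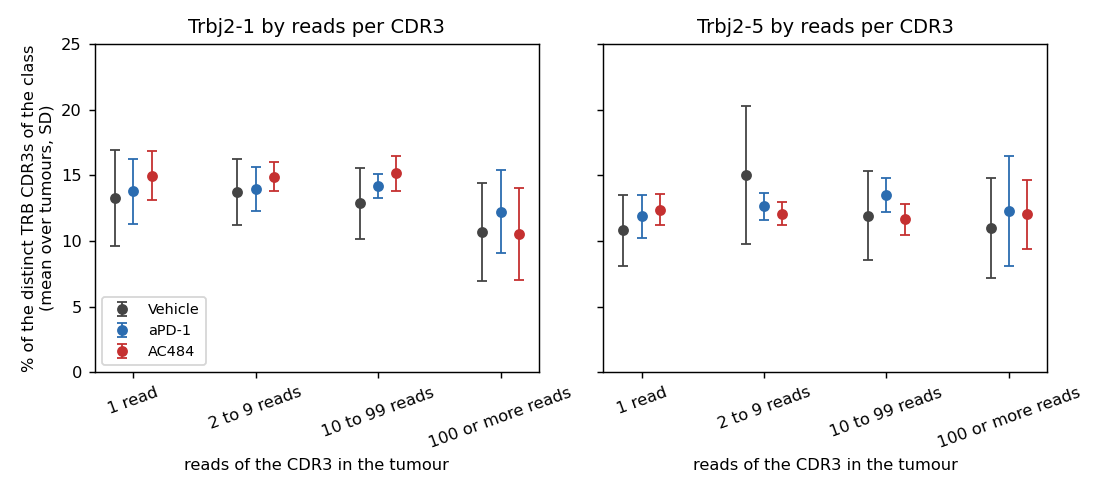
Share of Trbj2-1 (left) and Trbj2-5 (right) among the distinct TRB CDR3s of a tumour with 1, 2 to 9, 10 to 99, and 100 or more reads (x axis), as the mean over tumours with SD bars (y axis, %; tumours with at least 20 CDR3s in the class). At 10 to 99 reads AC484 lies above aPD-1 for Trbj2-1 (15.1% and 14.2%) and below it for Trbj2-5 (11.6% and 13.5%), and at 100 or more reads the bars of all groups overlap.

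Shares of reads weigh each CDR3 by its abundance, and they did not follow the shares of distinct CDR3s. In whole tumours, more cells of a clone and more receptor RNA per cell cannot be told apart. Trbj2-1 took from 1.23% to 14.3% of TRB reads in Vehicle (median 6.503%), from 2.63% to 65.0% in aPD-1 (median 11.7%) and from 2.38% to 18.7% in AC484 (median 7.80%). Trbj2-5 took from 2.27% to 35.2% in Vehicle (median 8.88%), from 1.59% to 30.9% in aPD-1 (median 8.37%) and from 5.07% to 24.0% in AC484 (median 9.84%). The groups overlapped over most of their ranges for both genes.

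The mean read share of Trbj2-1 was 7.08% ± 4.44 (n = 14) in Vehicle, 15.3% ± 15.5 (n = 15) in aPD-1 and 9.09% ± 5.15 (n = 15) in AC484. AC484 tumours were thus 6.18 ± 4.21 points (SE) below aPD-1 tumours in reads while lying above them in distinct CDR3s. For Trbj2-5 the means were 13.0% ± 11.0, 9.69% ± 7.32 and 10.96% ± 5.30, and AC484 exceeded aPD-1 by 1.27 ± 2.33 points, or by 2.78 points without aPD-1 14, 0.84 without AC484 1, 0.69 without aPD-1 6 and 0.34 without AC484 13. Without the tumour aPD-1 6 the Trbj2-1 difference fell to -2.63 points between AC484 and aPD-1 and from 8.19 to 4.63 points between aPD-1 and Vehicle. Without the largest CDR3 of every tumour these differences were -0.46 and 1.91 points.

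Within index set 3 the read shares went the other way, with Trbj2-1 at 8.07% ± 5.55 in 7 AC484 tumours and 5.36% ± 2.85 in 5 aPD-1 tumours, and Trbj2-5 at 9.18% ± 3.95 and 15.5% ± 9.38. The aPD-1 tumours of set 2 had 20.2% ± 16.9 of their reads in Trbj2-1 and 6.77% ± 3.99 in Trbj2-5. The read shares of aPD-1 tumours therefore differed between index sets in both genes, and the part of the index set in this was not tested.

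Single clones made up much of these shares. The largest Trbj2-1 CDR3 of a tumour took a median of 1.87% of TRB reads in Vehicle, 5.22% in aPD-1 and 1.62% in AC484, and it was the largest TRB CDR3 of the tumour in 0, 3 and 0 tumours. The largest Trbj2-5 CDR3 took medians of 2.26%, 2.86% and 3.59% and led its tumour in 2, 1 and 2 tumours. All other Trbj2-1 CDR3s together held 4.32% ± 2.79, 6.505% ± 3.03 and 6.09% ± 2.92 of reads, and all other Trbj2-5 CDR3s 5.79% ± 4.70, 5.87% ± 2.90 and 6.07% ± 2.43, ranges that overlapped between all groups. Clones of at least 1% of TRB reads numbered from 0 to 4 per tumour in both genes, with means of 1.21, 1.47 and 0.93 for Trbj2-1 and 1.29, 1.13 and 1.67 for Trbj2-5 in Vehicle, aPD-1 and AC484.

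**Figure D4:**
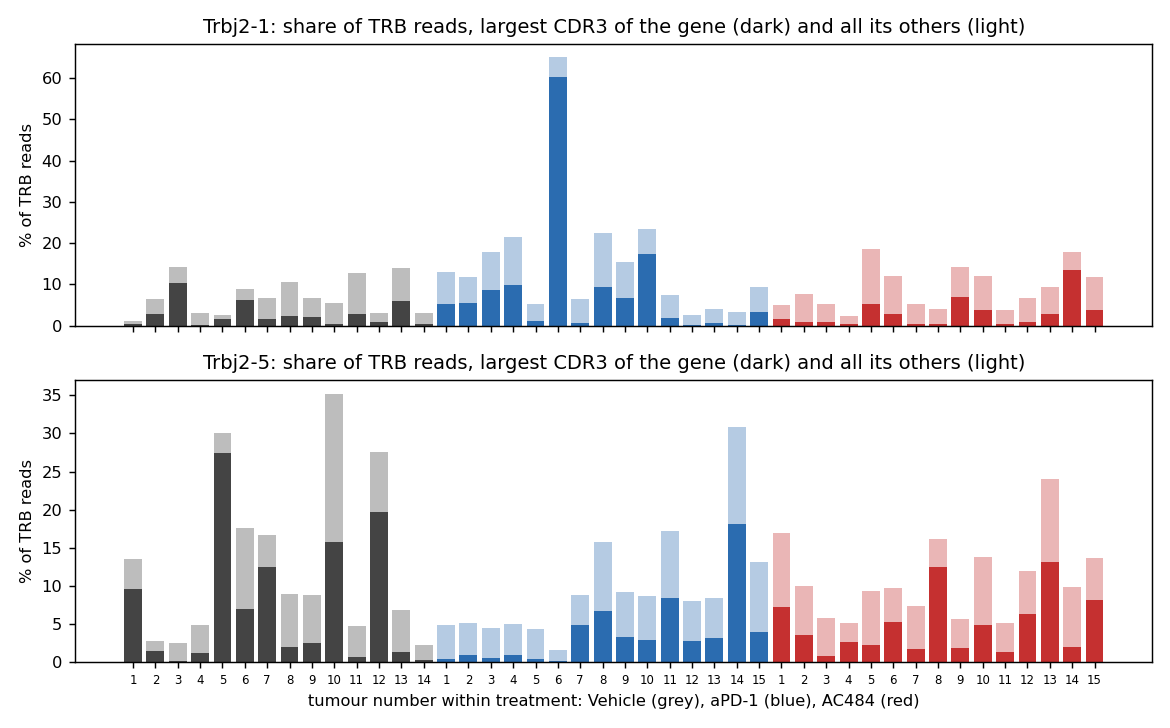
Share of TRB reads (y axis, %) of Trbj2-1 (top) and Trbj2-5 (bottom) in each of the 44 tumours, numbered within Vehicle (grey), aPD-1 (blue) and AC484 (red). The dark part of a bar is the largest CDR3 of the gene and the light part all its others, and the panels have separate scales. The tallest bar, aPD-1 tumour 6 at 65.0%, holds 1 Trbj2-1 CDR3 of 60.4% of TRB reads.

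The CDR3 that took the largest share of a tumour's TRB reads is given for each treatment, to show how much of the germline end the leading clones kept. In Trbj2-1 these were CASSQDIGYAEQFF in Vehicle (11016 reads, 10.4% of the TRB reads of Vehicle 3), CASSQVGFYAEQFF in aPD-1 (164981 reads, 60.4% in aPD-1 6) and a CDR3 of 16 residues in AC484 (11542 reads, 13.5% in AC484 14). The first and the second kept YAEQFF and the one in AC484 the whole NYAEQFF. In Trbj2-5 these were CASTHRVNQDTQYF in Vehicle (1983 reads, 27.4% in Vehicle 5), a CDR3 of 18 residues in aPD-1 (31360 reads, 18.1% in aPD-1 14) and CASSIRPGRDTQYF in AC484 (21484 reads, 13.1% in AC484 13). The first and the second kept the whole NQDTQYF and the one in AC484 kept DTQYF. Each of these 6 CDR3s reached 1% of its own largest count in 1 tumour alone.

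The CDR3s found in the most tumours were ranked with all counts, low ones included. For Trbj2-1 these were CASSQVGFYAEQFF (17 tumours), a CDR3 of 15 residues ending in AEQFF with the DWG of a Trbd2 frame (15 tumours) and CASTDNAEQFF (15 tumours). In the order Vehicle, aPD-1 and AC484 they were in 3, 10 and 4, in 3, 10 and 2, and in 3, 9 and 3 tumours. Their highest counts in a tumour were 164981, 39350 and 34448 reads, against a median of 9, 6 and 3 reads over the tumours that held them. All had their largest count in index set 2, to which 12, 12 and 11 of their tumours belonged, out of 12 in the set. Counts of at least 1% of the largest were left in 1, 2 and 1 tumours.

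For Trbj2-5 the first was a CDR3 of 15 residues with the Trbv20 start CGAR, the DWG of a Trbd2 frame and the whole NQDTQYF. It was found in 29 tumours, 4 of Vehicle, 10 of aPD-1 and all 15 of AC484, with a median of 35 and a highest count of 689 reads. The next, with the same start and frame and the end QDTQYF, was found in 26 tumours (1, 11 and 14) with a median of 70.5 and a highest count of 652 reads. Another, of 15 residues and ending in QDTQYF, was in 24 tumours (2, 9 and 13) with a highest count of 10560 reads. Counts of at least 1% of the largest were left in 23, 22 and 7 tumours. No CDR3 of Trbj2-1 was in more than 17 tumours with all counts, or in more than 14 without counts under 1% of the largest, against 29 and 23 for Trbj2-5. The part of carry-over between libraries in these low counts was not tested. Mean repertoires also differed, with 609 distinct TRB CDR3s in Vehicle, 2025 in aPD-1 and 3801 in AC484, so the numbers of tumours by treatment are not read as treatment differences.

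Features of the CDR3s were compared within each tumour, by a two-sided sign-flip permutation test of the mean difference (100000 resamples, smallest possible p of 1e-05). Benjamini-Hochberg adjustment was over 17 tests. Except for mean reads per CDR3, these features did not enter the choice of the genes. Tumours needed at least 5 CDR3s on either side. A CDR3 found in several tumours enters the values of each, so the differences of the tumours are not independent. The adjusted p-values of all 17 tests may therefore be too small. Trbj2-1 CDR3s were longer than Trbj2-5 CDR3s, with 14.36 ± 0.09 against 14.05 ± 0.14 residues (SD over tumours), a difference of 0.31 ± 0.02 (SE, n = 44, adjusted p = 4.25e-05) that was positive in 43 of 44 tumours. They were also longer than those of the other Trbj2 genes (Trbj2-2, Trbj2-3, Trbj2-4 and Trbj2-7) by 0.22 ± 0.02 residues (adjusted p = 4.25e-05 by permutation, longer in 43 of 44 tumours). Trbj2-5 CDR3s were shorter than those of the other Trbj2 genes by 0.09 residues (difference -0.09 ± 0.03, n = 44, adjusted p = 0.0030 by permutation, lower in 37 of 44). This last difference depended on how the J gene was assigned: with the longest match of at least 4 residues in place of the fixed endings it was 0.05 residues with the opposite sign (adjusted p = 0.066 by permutation, range over 9 alternatives 1.8e-05 to 0.392). The other Trbj2 genes also differ in their J ends. Trbj2-7 can give at most 6 residues (SYEQYF), and Trbj2-4 was counted only where 6 were kept (QNTLYF). The part of these J ends in both length comparisons with the other Trbj2 genes was not tested.

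The difference in length came with more germline J residues. CDR3s of Trbj2-1 kept 6.04 ± 0.06 J residues and those of Trbj2-5 kept 5.83 ± 0.08, a difference of 0.21 ± 0.01 (SE, n = 44, adjusted p = 4.25e-05 by permutation, higher in 42 of 44 tumours). Since the endings require 5 residues, only CDR3s with 5, 6 or 7 enter this mean. Trbj2-1 has 1 base before the codons of NYAEQFF, whereas Trbj2-5 starts with the first codon of NQDTQYF. Trbj2-1 can thus lose 1 base and still keep all 7 residues, so residues kept do not measure how many bases were trimmed. Over different sequences, 3354 of 10931 Trbj2-1 CDR3s (30.7%) kept the whole NYAEQFF, 4500 (41.2%) kept YAEQFF and 3077 (28.1%) kept AEQFF. For Trbj2-5, 1895 of 8895 (21.3%) kept NQDTQYF, 3680 (41.4%) kept QDTQYF and 3320 (37.3%) kept DTQYF. The commonest length was 15 residues for Trbj2-1 (30.6% of sequences) and 14 residues for Trbj2-5 (32.4%).

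**Figure D5:**
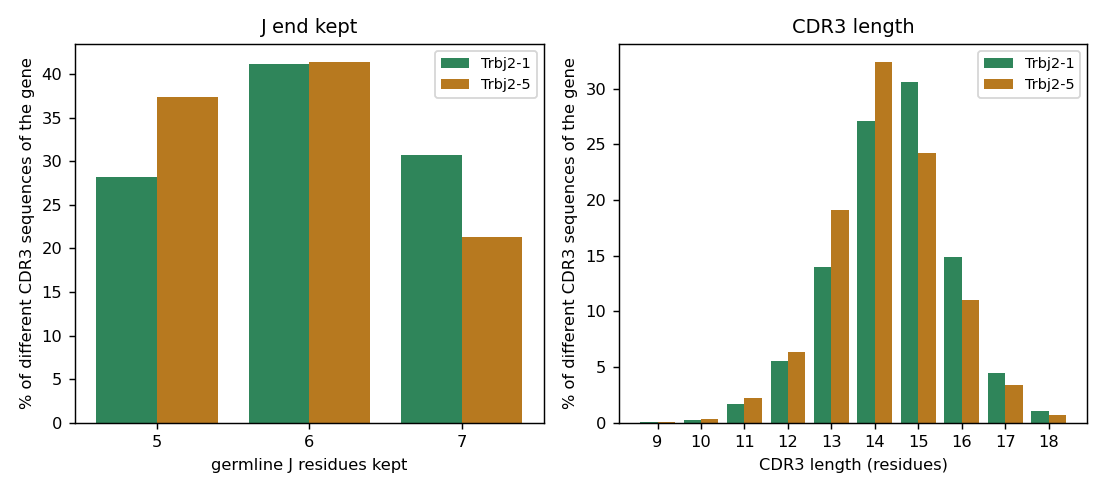
Germline J residues kept at the end of the CDR3 (left) and CDR3 length in residues (right), as % of the different CDR3 sequences of Trbj2-1 (green, 10931 sequences) and Trbj2-5 (brown, 8895 sequences) over all tumours. Trbj2-1 keeps 7 residues in 30.7% and Trbj2-5 in 21.3% of sequences, and the commonest lengths are 15 and 14 residues.

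The D segment was read from frames of 3 residues, GQG or DRG for Trbd1 and GLG or DWG for Trbd2, between the first 3 residues and the J ending. Of Trbj2-1 sequences 4.40% were assigned to Trbd1 and 13.3% to Trbd2, and of Trbj2-5 sequences 4.06% and 12.6%, with the others unassigned. In Trbj1 genes, which serve as the control because Trbd2 lies behind them, 142 of 25411 sequences (0.56%) carried a Trbd2 frame and 2241 (8.82%) a Trbd1 frame. Among assigned CDR3s Trbd2 made up 77.5% ± 7.43 for Trbj2-1 and 79.3% ± 7.45 for Trbj2-5, a difference of -1.80 ± 1.69 points (n = 40, adjusted p = 0.37 by permutation). Neither gene differed detectably from the other Trbj2 genes in this share (-0.10 ± 1.197 points, n = 40, adjusted p = 0.93, and 1.39 ± 1.46 points, n = 41, adjusted p = 0.39, both by permutation).

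Within aPD-1 tumours alone, however, Trbd2 made up 77.0% ± 9.33 of assigned Trbj2-1 CDR3s and 85.9% ± 5.59 of assigned Trbj2-5 CDR3s, a difference of -8.88 points (n = 15, exact sign-flip permutation, adjusted p = 0.0061). Trbj2-5 there exceeded the other Trbj2 genes by 8.84 points (n = 15, exact permutation, adjusted p = 0.0021). These are 1 of the 9 alternatives to the tests over all tumours and the only one of them past the threshold, with adjusted p from 0.0061 to 0.63 between both genes and from 0.0021 to 0.81 against the other Trbj2 genes by permutation or sign test. No other setting was run within aPD-1 tumours. In AC484 tumours the shares were 77.3% ± 5.03 and 75.9% ± 4.33 and in Vehicle tumours 78.6% ± 7.93 and 75.3% ± 6.38. Whether this difference between genes itself differs between treatments was not tested.

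Of the Trbv segments, 4 were read from CDR3 starts, and all other starts were counted together. The germline start of Trbv13-2 is CASGD, so CASGE and CASGG, counted with it, may include other segments. Trbj2-1 CDR3s carried the Trbv13-2 starts (CASGD, CASGE or CASGG) less often than Trbj2-5 CDR3s, in 7.60% ± 2.30 against 9.70% ± 3.79 of CDR3s (difference -2.09 ± 0.60 points, n = 44, adjusted p = 0.0022 by permutation, lower in 29 of 44 tumours). The Trbv20 start CGAR was in 2.08% ± 1.39 of Trbj2-1 and 3.11% ± 1.81 of Trbj2-5 CDR3s (difference -1.03 ± 0.36, adjusted p = 0.0046 by permutation over 44 tumours, lower in 30). The Trbv31 start CAWS (2.93% and 3.61%, difference -0.68 ± 0.60, adjusted p = 0.37 by permutation) and the Trbv1 start CTCSA (3.95% and 3.86%, difference 0.10 ± 0.36, adjusted p = 0.84) gave no difference past the threshold. The Trbv13-2 difference was -1.25 points when tumours were drawn to equal depth (adjusted p = 0.22 by permutation, range over alternatives 0.0011 to 0.51). It was thus not detectable at that depth. Over different sequences, each counted once, the Trbv20 start was in 232 of 10931 Trbj2-1 (2.12%) and 198 of 8895 Trbj2-5 CDR3s (2.23%). The Trbv13-2 starts were in 875 (8.00%) and 841 (9.45%) of them. A CDR3 found in several tumours enters the share of each. The 44 differences are therefore not independent, and the adjusted p-values for Trbv starts may be too small.

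Trbj2-1 CDR3s were found in another tumour less often than those of Trbj2-5. Of a tumour's Trbj2-1 CDR3s 37.2% ± 9.24 were also in another tumour, against 40.5% ± 9.73 for Trbj2-5 (difference -3.30 ± 1.00 points, n = 44, adjusted p = 0.0030 by permutation, lower in 33) and 43.6% ± 9.49 for the other Trbj2 genes (difference -6.41 ± 0.87, adjusted p = 4.25e-05, lower in 40 of 44). Trbj2-5 in turn lay 3.11 points below the other Trbj2 genes (difference -3.11 ± 1.08, adjusted p = 0.0074 by permutation over 44 tumours). A shared CDR3 raises this share in every tumour that holds it. The 44 differences are therefore not independent, and these adjusted p-values may be too small. Over different sequences, 1562 of 10931 Trbj2-1 CDR3s (14.3%) and 1406 of 8895 Trbj2-5 CDR3s (15.8%) were in at least 2 tumours, and 34 and 32 were in at least 10, or 17 and 20 without counts under 1% of a CDR3's largest count. Where a CDR3 was in exactly 2 tumours, both were of the same index set for 34.3% of Trbj2-1 and 35.8% of Trbj2-5 CDR3s, while 23.9% of all pairs of tumours share a set. Without counts under 1% of a CDR3's largest count these were 33.4% and 34.0%. Groups are unevenly spread over the sets, so treatment and set cannot be told apart in these shares. The 23.9% counts all pairs of tumours alike, whereas larger repertoires can share more CDR3s, so it is not an expected value for shared CDR3s.

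Mean reads per CDR3, on the log2 scale, were lower in Trbj2-1 than in the other Trbj2 genes (5.18 ± 1.82 against 5.90 ± 1.35, difference -0.72 ± 0.19, n = 44, adjusted p = 0.0014 by permutation, lower in 33 of 44). Trbj2-5, at 5.51 ± 1.44, lay 0.39 below the other Trbj2 genes (difference -0.39 ± 0.18, adjusted p = 0.059 by permutation), and Trbj2-1 differed from Trbj2-5 by -0.32 ± 0.25 (adjusted p = 0.28). The other Trbj2 genes were counted together and held more CDR3s than either gene alone. Where single large clones hold many of the reads, the log2 of a mean tends to be lower over fewer CDR3s. The comparisons with the other Trbj2 genes, at any setting, therefore do not show whether clones of either gene were smaller. Within AC484 tumours alone, Trbj2-1 had 4.26 ± 1.34 and Trbj2-5 4.93 ± 1.27. The difference was -0.67 (n = 15, exact permutation, adjusted p = 0.032). This was the only one of 9 alternatives to the test over all tumours to pass the threshold (adjusted p from 0.032 to 0.57 by permutation or sign test), and no other setting was run within AC484 tumours. Within aPD-1 tumours alone the difference was 0.37 in the other direction, and whether treatments differ in it was not tested. Mean reads per CDR3 divide a gene's reads by its distinct CDR3s, and shares of both entered the choice of the genes. Nothing is therefore read from the p-values of this feature.

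Over the 44 tumours, the distinct share of Trbj2-1 was most like that of Trbj1-1 (Pearson r = 0.30) and Trbj2-7 (r = 0.28) and least like that of Trbj1-2 (r = -0.65) and Trbj1-6 (r = -0.58). For Trbj2-5 the most alike were Trbj2-7 (r = 0.25) and Trbj1-5 (r = 0.19), and the least alike were Trbj2-1 (r = -0.34) and Trbj2-4 (r = -0.25). Shares of 1 tumour share a total, which pulls such values below 0, and the small Vehicle repertoires weigh most. Trbj2-1 and Trbj2-5 were chosen for opposite shifts between treatments, which by itself lowers r between them where treatments are pooled. With group means removed, r between both genes was -0.29 over the 44 tumours. Over the 30 aPD-1 and AC484 tumours it was -0.52, a value that again pools treatments. In these 30 tumours r of Trbj2-1 with Trbj1-1 and Trbj1-2 was -0.23 and 0.27, each with the opposite sign to that over all tumours. The signs also turned for Trbj2-5 with Trbj2-7 (r = -0.17) and with Trbj2-4 (r = 0.18), while r of Trbj2-1 with Trbj2-7 was 0.03 and with Trbj1-6 -0.20, and r of Trbj2-5 with Trbj1-5 was 0.11.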

How the data were processed

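TCR transcripts of each tumour were amplified (Takara SMARTer kit) and sequenced on a MiSeq, and the authors assembled clonotypes with MiXCR; the submitters' notes name mm10. The deposited values are counts of reads for every amino acid CDR3 of a tumour, not normalized, without nucleotides, chain, V or J calls. The deposited table also lists library concentrations in nM, another value per tumour, which were not analysed further, and the authors' clone proportions and CDR3 lengths, not used here. Of all reads 70.2% were in CDR3s with 1 of the 12 TRBJ endings. Reads carry no molecular identifiers.

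The methods bring tumours to an equal total clone count and compare groups by Student's t-test; here counts were used as deposited, with drawing to 5060 TRB reads as an alternative, and the methods' test was not run because the treatment contrast chose both genes. Members and lists were chosen with earlier results of these data known. Named items were both genes, the 10 other TRBJ genes in order of level, for each gene the 2 most and 2 least alike by Pearson r, the 3 CDR3s in the most tumours and the largest CDR3 per treatment. CDR3s of over 14 residues are described by length and ending; Trbv start and Trbd frame were added after values were seen. The splits of shares by reads, length, sharing, Trbv start and Trbd frame were also chosen after.

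The edgeR fit (quasi-likelihood, total distinct TRB CDR3s as library size) used all 3 groups. Both kinds of test were also run on simulated data. For edgeR these had no spread between tumours beyond counting, and for the within-tumour tests CDR3s were drawn independently in each tumour. The runs therefore do not show how the tests behave with such spread or with shared CDR3s. Replicates are separate tumours by the labels. Near-copies, 605 entries, were CDR3s 1 substitution from one with at least 100 times their reads in the same tumour. Intervals are Wilson intervals. Counts were modelled with edgeR 4.0.16 (alternative DESeq2 1.42.0) in R 4.3.3. Shares and permutation tests used SciPy 1.17.1, pandas 2.3.3 and NumPy 2.4.6 in Python 3.11.15, p-values were adjusted with statsmodels 0.14.6, and plots were drawn with matplotlib 3.10.9.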

Additional observations from a re-analysis of the deposited data

How the results depend on the processing

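Depth limits the Vehicle group most, whose smallest repertoire had 108 distinct TRB CDR3s. Over alternative settings, 86 differences in shares kept their direction and moved by less than the spread between tumours, and 6 changed direction. These were the aPD-1 minus Vehicle difference in distinct CDR3s of Trbj2-5 without CDR3s of a single read (-0.14 points) and without counts under 1% of the largest (-0.042), that of Trbj2-1 within index set 2 (-0.48), the aPD-1 minus Vehicle read share of Trbj2-5 within set 2 (2.24), and the AC484 minus aPD-1 read shares of Trbj2-1 (2.71) and Trbj2-5 (-6.34) within set 3. Leaving out 1 tumour changed no direction in 352 of 352 cases. The count of TRBJ genes called between AC484 and Vehicle was 1 without near-copies in place of 0, and that between AC484 and aPD-1 was 1 with DESeq2 in place of 2. The cause of these changes was not tested.

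Of the within-tumour tests 118 kept direction and side of the threshold. With reads drawn to the smallest tumour the Trbv13-2 difference was -1.25 points and no longer past the threshold, and the Trbv1 difference changed sign (-0.23). Without CDR3s of a single read the Trbv1 difference was -0.10 and the Trbd2 share of Trbj2-1 against other Trbj2 genes 0.84, both with changed sign, and log2 reads of Trbj2-5 against other Trbj2 genes, -0.41, passed the threshold. Without counts under 1% of the largest the Trbv31 difference (0.10) and the Trbd2 share of Trbj2-5 against other Trbj2 genes (-0.36) changed sign, and log2 reads of Trbj2-5, -0.42, passed. With the longest J match the Trbv1 difference (-0.088), the Trbd2 share of Trbj2-1 against other Trbj2 genes (0.74) and the length of Trbj2-5 against other Trbj2 genes (0.054) changed sign, and log2 reads of Trbj2-5, -0.45, passed. By the exact sign test, with medians as values, Trbv13-2 (-2.13) no longer passed, the Trbd2 share of Trbj2-1 against other Trbj2 genes changed sign (1.21) and log2 reads of Trbj2-5 (-0.44) passed.

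Within single treatments fewer tumours enter. In Vehicle alone the differences no longer past the threshold were CDR3s found in another tumour (-3.24 between both genes, -5.56 for Trbj2-5 against other Trbj2 genes), Trbv13-2 (-1.30), Trbv20 (-1.03), log2 reads of Trbj2-1 (-0.90) and length of Trbj2-5 (-0.10) against other Trbj2 genes. The Trbd2 share between both genes (4.01), for Trbj2-1 (0.70) and Trbj2-5 (-3.96) against other Trbj2 genes, and Trbv1 (-0.21) changed sign. In aPD-1 alone the Trbd2 share between both genes (-8.88) and for Trbj2-5 (8.84) passed, log2 reads (0.37) and Trbv31 (0.34) between both genes changed sign, and log2 reads of Trbj2-1 (-0.25) and CDR3s found in another tumour of Trbj2-5 (-2.15) against other Trbj2 genes no longer passed. In AC484 alone the Trbd2 share changed sign between both genes (1.42) and for Trbj2-5 (-2.12), log2 reads between both genes (-0.67) passed, and CDR3s found in another tumour of Trbj2-5 (-1.79) no longer passed.

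With the replicate number as a block the AC484 minus aPD-1 differences were 1.03 and -0.91 points and edgeR called 0, 2 and 0 genes, as without the replicate block. Deviations of same-numbered tumours had median correlations of -0.13 (AC484 and Vehicle), -0.01 (AC484 and aPD-1) and 0.10 (aPD-1 and Vehicle), so the numbers were not taken as pairs.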

Other observations

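Split by CDR3 length, the share of Trbj2-1 among distinct TRB CDR3s was 12.8% ± 1.18 (SD) in aPD-1 and 14.2% ± 1.07 in AC484 at 14 residues, and 16.4% ± 1.68 and 18.6% ± 1.59 at 15 residues (n = 15 tumours each). At 13 residues it was 11.5% ± 1.61 and 11.7% ± 1.296, and at 16 or more residues 18.9% ± 2.02 and 18.0% ± 1.72. The share of Trbj2-5 was 15.1% ± 1.83 and 13.6% ± 1.18 at 13 residues, 11.4% ± 1.51 and 11.2% ± 0.94 at 15 residues, and 12.1% ± 1.78 and 10.5% ± 1.098 at 16 or more. These splits were made after the shares were seen and were not tested.

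Among CDR3s found in a single tumour, Trbj2-1 took 14.7% ± 0.78 in aPD-1 and 15.4% ± 0.82 in AC484 and Trbj2-5 took 12.9% ± 1.24 and 11.9% ± 0.88. Among CDR3s found in another tumour too, the shares were 12.7% ± 1.24 and 13.9% ± 0.87 for Trbj2-1 and 13.0% ± 1.03 and 12.2% ± 1.22 for Trbj2-5. Among CDR3s with a Trbv13-2 start Trbj2-5 had 17.6% ± 4.26 in aPD-1 and 14.9% ± 2.52 in AC484, and Trbj2-1 had 13.8% ± 2.21 and 14.8% ± 3.15. In the 10 Vehicle tumours with at least 20 such CDR3s Trbj2-5 had 19.4% ± 6.78 and Trbj2-1 17.1% ± 5.81. Other classes ran against the difference over all CDR3s: Trbj2-5 had 12.2% ± 3.75 in aPD-1 and 12.7% ± 4.66 in AC484 among Trbv31 starts, and 5.81% ± 2.64 and 9.43% ± 1.89 among CDR3s with a Trbd1 frame. Trbj2-1 had 14.2% ± 3.46 and 13.5% ± 3.26 among Trbv1 starts and 15.6% ± 5.41 and 15.4% ± 4.32 among Trbv31 starts.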
